A study of Mus musculus with 6 samples.

Results

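The genes described here are 9 transcription factors of the myeloid blood lineage, Spi1, Spic, Irf8, Irf5, Nr1h3, Cebpb, Cebpe, Gfi1 and Ikzf1, out of 17854 genes measured by bulk RNA sequencing. They were taken from the expression table by symbol, with earlier results of these data known, and 9 of 9 were in it. The study compared mouse Tomato+ cells from the articular cartilage of the knee, sorted by flow cytometry from 2 sources. The first source was repaired cartilage of C57BL/6 males with osteoarthritis caused by transection of the anterior cruciate ligament, whose joints had received mesenchymal stromal cells (MSCs) sorted from the inguinal white adipose tissue (iWAT) of Prrx1-Cre; R26tdTomato mice (MSC-derived cells, 3 libraries). The second source was cartilage of Prrx1-Cre; R26tdTomato males of the same strain, matched for age and sex (endogenous cells, 3 libraries). By design, the injected and the endogenous cells carried the Prrx1-Cre and R26tdTomato alleles, while the hosts are described as normal C57BL/6 mice. The origin of the RNA in the first group rests on sorting for Tomato and was not tested here. Cre driven by Prrx1 regulatory sequence leaves a lasting red label in every descendant of a Prrx1-expressing cell, so the label marks ancestry and not the present cell type. The methods describe surgery and injection for the first group and not for the second, so cell origin, disease and injection cannot be told apart. Each group is given with 3 mice, but whether each library came from 1 mouse is not given in the sources used here, and p-values then measure the spread between these libraries, which may be partly technical.

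Transcription factors of this group set up and maintain the blood lineages that make macrophages, monocytes, dendritic cells and granulocytes. PU.1 (gene Spi1) is needed throughout myeloid development, and its relative SpiC (Spic) is known for the macrophages of the spleen and bone marrow that recycle iron from red cells. IRF8 stands at the branch between monocytes and granulocytes, and C/EBPε acts in the late steps of granulocyte maturation. GFI1 represses monocyte genes in granulocyte precursors, and Ikaros (Ikzf1) acts across the lymphoid and myeloid branches. Cartilage is not a typical source of most of these factors, whereas C/EBPβ (Cebpb) is also expressed in chondrocytes, fat and liver.

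The promoters of 3 of the factors are shown because they stand at the extremes of the results or hold a motif searched for: Spic changed most, Cebpb changed least, and Gfi1 had the lowest level. Each is the run of 250 bases before an annotated RefSeq start (GRCm38.p6), written 5′ to 3′ on the strand of the gene, and capitals mark a motif found by search. Spic lies on the minus strand at chr10:88683024-88683273, the first Gfi1 start on the minus strand at chr5:107725806-107726055, and Cebpb on the plus strand at chr2:167688665-167688914.
Spic: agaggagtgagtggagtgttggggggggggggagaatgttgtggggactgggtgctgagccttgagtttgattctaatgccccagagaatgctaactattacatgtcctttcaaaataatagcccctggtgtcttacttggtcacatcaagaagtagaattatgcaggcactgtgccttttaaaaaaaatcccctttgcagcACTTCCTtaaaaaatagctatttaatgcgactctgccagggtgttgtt
Gfi1: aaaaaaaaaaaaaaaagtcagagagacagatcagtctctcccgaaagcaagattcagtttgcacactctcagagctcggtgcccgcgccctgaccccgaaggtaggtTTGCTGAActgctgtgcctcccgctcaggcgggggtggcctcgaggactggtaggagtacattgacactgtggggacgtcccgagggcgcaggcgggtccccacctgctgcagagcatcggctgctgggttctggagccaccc
Cebpb: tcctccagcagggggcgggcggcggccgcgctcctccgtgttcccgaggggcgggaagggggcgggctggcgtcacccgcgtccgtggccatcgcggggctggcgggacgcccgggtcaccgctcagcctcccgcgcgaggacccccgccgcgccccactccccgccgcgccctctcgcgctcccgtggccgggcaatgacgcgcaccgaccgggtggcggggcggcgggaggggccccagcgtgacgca
The capitals in Spic are the reverse complement of AGGAAGT, the core of a PU.1-type ETS site, and begin at position -48 counted from the start. Those in Gfi1 are a C/EBP-type match (TTGC, any 2 bases, AA) that begins at position -143. RefSeq gave 11 such windows for 7 of the 9 factors, and none was used here for Spi1 and Cebpe. AGGAAGT on either strand occurred in 7.69% of 32851 mouse windows of this length and in 1 of the 11 windows of the factors. The C/EBP-type match occurred in 9.56% of all windows and in 1 of the 11 windows of the factors. No member window held GGAA and GAAA separated by 2 bases (2.3% of all windows), 2 copies of GAAA separated by 2 bases (2.98%) or 2 copies of AGGTCA separated by 4 bases (0.0152%). The Cebpb window was 81.6% G or C, compared with 44.8% for Spic, 59.2% for Gfi1 and a median of 52.4% over all windows.

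The expected counts summed to between 22060628 and 24881796 per library, and 3 counts, taken as the detection floor, correspond to 0.117 to 0.133 CPM, which are counts scaled to the size of the library. Floors and intervals of this kind cover counting error only. The 3 MSC-derived libraries were close to each other, with a biological coefficient of variation of 6.78% against 35.1% among the endogenous libraries. Endogenous library 1 stood apart from the other two: the chi-square statistic per gene was 58.6 and 55.3 against them and 5.44 between them, and 3459 genes had 0 counts in it compared with 1338 and 1395. The factors' values without that library are given where they move.

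All 6 libraries are labelled chondrocyte, and the defining markers of this cell type differed between the groups. Of 14 chondrocyte markers, 14 were lower in the MSC-derived libraries, where their summed level was 6364 to 6577 CPM compared with 59460 to 59960 CPM in the endogenous libraries. Most of the sum in the MSC-derived libraries was Prg4, with 121811 to 134904 counts compared with 11677 to 12518 for Comp, the next highest. Prg4 also changed least of the 14, with a log2 fold change of -0.51. Col2a1, the main collagen of cartilage, had a level of 97.9 ± 3.83 FPKM (SD, n = 3) in the MSC-derived and 7112 ± 30.2 FPKM in the endogenous libraries. Markers shared by white blood cells moved the other way, since 16 of 16 leukocyte genes were higher in the MSC-derived libraries, at a summed 9083 to 9214 CPM against 534.9 to 689.1 CPM. Ptprc, which encodes CD45, had a level of 75.9 ± 2.39 FPKM compared with 3.84 ± 1.30 FPKM. The 15 macrophage markers measured (13210 to 13440 against 188.3 to 255.2 CPM), 12 neutrophil markers (45040 to 47110 against 2215 to 3122 CPM) and 10 erythroid markers (15750 to 15940 against 2598 to 3767 CPM) were also called higher, each list in full. No gene of these 5 lists was at 0 in all 3 libraries of a group. These markers differed between the same groups that the results below compare, and their part in those results was not tested. In bulk libraries, fewer cells of a type and less RNA per cell cannot be told apart.

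All 9 factors were higher in the MSC-derived libraries. They passed the filter on low counts and had a Benjamini-Hochberg adjusted p under the threshold of 0.05 in edgeR's quasi-likelihood test, where 31.3% of the 14289 genes tested were called higher and 30.3% lower. For each of the 9 the lowest MSC-derived library was above the highest endogenous library, a pattern found upward in 38.2% and downward in 34.1% of the genes tested. The count of 9, like the counts of every gene list in this text, is to be read against those shares. The sizes are to be read against all genes. The median log2 fold change of the 9 was 3.92 compared with 0.05 over all genes tested, and 8 of them lay among the top 5% of all genes. Cebpb was the exception, with 26.0% of all genes above it.

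**Figure D1:**
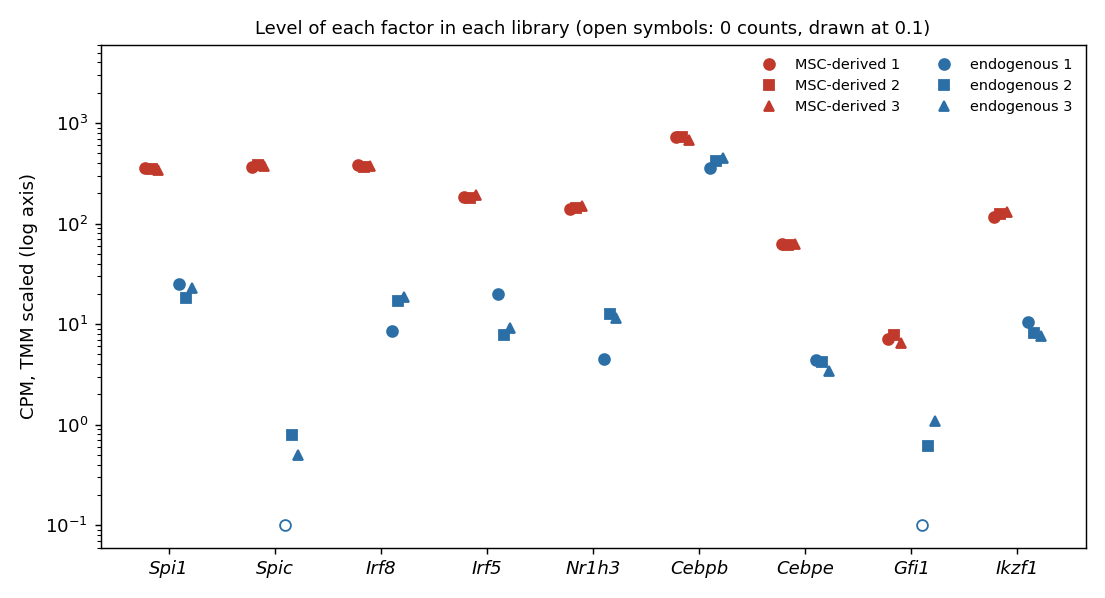
Level of the 9 factors in CPM (counts scaled to library size by TMM, log axis) in the 3 MSC-derived (red) and 3 endogenous (blue) libraries, 1 symbol per library, with open symbols for 0 counts. Every red symbol lies above every blue symbol of the same gene, and the distance is smallest for Cebpb (681.9 against 445.7 CPM between the nearest libraries).

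Spi1 encodes PU.1, an ETS-type factor that opens enhancers in myeloid and B cells. Its level was 360.1, 351.4 and 337.5 CPM in the MSC-derived libraries 1 to 3 and 25.1, 18.1 and 22.8 CPM in the endogenous libraries 1 to 3. The 3 MSC-derived values were close together, and the lowest of them was 13.4 times the highest endogenous value. The log2 fold change was 3.99 ± 0.13 (SE), with an adjusted p of 2.93e-07. PU.1 transcript was thus measured in all 6 libraries, well above the floor in the endogenous ones, which had 409 to 570 counts.

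Spic showed the steepest difference of the 9. It had 9236, 9274 and 8559 counts in the MSC-derived libraries and 0, 18 and 12 counts in the endogenous ones, or 361.1, 380.4 and 374.2 CPM against 0, 0.796 and 0.502 CPM. Endogenous library 1 had none, and the other two were only slightly above the floor. The lowest MSC-derived level was 454 times the highest endogenous level. The log2 fold change was 9.73 ± 0.43, with an adjusted p of 1.11e-06, and 0.133% of the genes tested had a larger one. Because the endogenous counts were so low, this value moved with the libraries used, from 9.11 without endogenous library 1 to 10.43 without endogenous library 2.

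The balance between both factors also differed. In FPKM, which corrects for transcript length, the ratio of Spic to Spi1 was 1.17, 1.26 and 1.30 in the MSC-derived libraries and 0, 0.0509 and 0.0261 in the endogenous libraries. Spic was thus the more abundant of the pair in 3 of 3 MSC-derived libraries and in none of the endogenous ones. Spib, the third gene of this ETS group and best known in B cells and plasmacytoid dendritic cells, had a level of 9.13 ± 0.87 FPKM compared with 1.06 ± 0.89 FPKM and a log2 fold change of 2.97 ± 0.75 (adjusted p = 0.0103).

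Genes known as targets of PU.1 rose with it. All 22 of a list of 22 were called higher, with a median log2 fold change of 4.48, compared with 31.3% of all genes. Fcgr1, the high-affinity receptor for IgG, had the largest change of the list, with a log2 fold change of 8.21 ± 0.20 from 0.183 ± 0.067 to 60.0 ± 1.33 FPKM. Cd68, a lysosomal protein of macrophages, was at 1428 ± 21.5 FPKM compared with 13.1 ± 1.36 FPKM. Ctss, a cathepsin used in antigen processing, was at 926.5 ± 19.7 compared with 8.59 ± 1.38 FPKM. The list and the macrophage and leukocyte markers share genes, so these counts are not separate measurements.

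Of 14 genes tied to SpiC and to iron recycling, 13 were called higher and none lower, with a median log2 fold change of 3.83. The largest increases were those of Itgad, the integrin αD chain of red pulp macrophages (log2 fold change 11.20 ± 0.41), Cd163, the scavenger receptor for haemoglobin (8.64 ± 0.23), and Treml4 (6.93 ± 0.45). Hmox1, which breaks down haem, changed by 5.36 and Slc40a1, the iron exporter ferroportin, by 6.54 on the log2 scale. The gene that was not called was Bach1, a haem-binding repressor of Spic. Its log2 fold change was -0.01 ± 0.10 (adjusted p = 0.940), at 11.6 ± 0.50 compared with 10.8 ± 1.09 FPKM.

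Irf8, a factor of monocytes and dendritic cells that binds DNA together with PU.1, was measured at 380.9, 367.6 and 375.2 CPM in the MSC-derived and 8.5, 17.2 and 18.7 CPM in the endogenous libraries. Endogenous library 1 was the lowest of the 6, at 0.475 times the mean of the other two. Its log2 fold change was 4.66 ± 0.28 (adjusted p = 5.44e-06) and 4.33 without that library.

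Irf5, which acts downstream of Toll-like receptors in macrophages, was measured at 183.3, 180.0 and 193.1 CPM in the MSC-derived and 19.8, 7.83 and 9.17 CPM in the endogenous libraries. Here endogenous library 1 was the highest of its group, at 2.33 times the mean of the other two, and still far below the MSC-derived libraries. Between the groups Irf5 differed by 3.92 ± 0.34 on the log2 scale (adjusted p = 4.1e-05), or by 4.39 without that library.

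The Irf5 value has a limit of its own. Irf5 was the one member of the 9 with fractional expected counts, and its annotated exons overlap those of Tnpo3, a nuclear import gene on the opposite strand. The expected counts of both genes added up to whole numbers (within 0.01) in 6 of 6 libraries, for example 4688.25 and 1247.75 to 5936 in MSC-derived library 1 and 449.5 and 1253.5 to 1703 in endogenous library 1. Reads were thus divided between both genes by estimation. Tnpo3 was itself not called (log2 fold change -0.06 ± 0.10, adjusted p = 0.626). Whether counting used strand is not given in the sources used here.

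Among the interferon regulatory factors, 7 of the 8 tested were called higher and 1 lower, with a median log2 fold change of 1.39. Outside the members, Irf7, which amplifies interferon production, changed by 1.92 ± 0.09, Irf2 by 1.43 ± 0.12, Irf4 by 1.36 ± 0.43, Irf9 by 1.27 ± 0.12 and Irf3 by 0.78 ± 0.13 on the log2 scale. Irf1 fell by 0.57 on the log2 scale, from 85.7 ± 5.50 to 62.6 ± 0.82 FPKM (adjusted p = 0.000387). Irf4 had the weakest support, with an adjusted p of 0.0280 that lay between 0.0667 and 0.112 without any 1 of the 3 MSC-derived libraries and at 0.0843 without endogenous library 3.

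The largest part of the family was Irf1 in the endogenous and Irf8 in the MSC-derived libraries. Irf1 made up 59.6% to 62.1% of the summed FPKM of the family in the endogenous libraries and 14.2% to 14.3% in the MSC-derived ones. Irf8 made up 33.1% to 33.7% in the MSC-derived libraries compared with 2.29% to 4.58%, and Irf5 20.4% to 21.5% compared with 2.32% to 5.14%. The ratio of Irf8 to Irf5 in FPKM was 1.65, 1.62 and 1.54 in the MSC-derived libraries and 0.445, 1.84 and 1.66 in the endogenous ones, so the groups overlapped in this ratio.

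Of 20 tested genes that signal to IRF5 or IRF8 or are known targets of them, 16 were called higher and 3 lower, with a median log2 fold change of 2.88. Tlr8, a receptor for single-stranded RNA, changed by 7.82 ± 0.37, Nlrc4, an inflammasome sensor, by 5.88 ± 0.50 and Tasl, an adaptor that links endosomal Toll-like receptors to IRF5, by 5.86 ± 0.46 on the log2 scale. The largest decreases were those of the cytokine Il6 (16 ± 0.34 compared with 78.9 ± 25.3 FPKM in the endogenous libraries) and of the protease inhibitor Cst3 (2682 ± 38.4 compared with 8127 ± 1786 FPKM). Neither Il6 nor Cst3 is restricted to blood cells.

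Nr1h3 encodes LXRα, the oxysterol receptor that switches on cholesterol efflux and is abundant in macrophages and liver. It was measured at 140.7, 141.2 and 147.9 CPM in the MSC-derived and 4.54, 12.6 and 11.6 CPM in the endogenous libraries. Endogenous library 1 was again the lowest, at 0.374 times the mean of the other two. This gave a log2 fold change of 3.90 ± 0.34 (adjusted p = 4.31e-05) and 3.51 without that library. The exons of Nr1h3 overlap those of a predicted gene on the same strand that was not used here.

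The other receptors of the pair that binds these sites changed less. Nr1h3 made up 46.9% to 48.9% of the summed FPKM of 5 LXR and RXR genes in the MSC-derived libraries and 5.64% to 10.2% in the endogenous ones. Rxrb and Rxra, the partners of LXR, changed by 0.59 ± 0.10 and 0.51 ± 0.10 on the log2 scale and were called higher. Nr1h2, the LXRβ gene that is expressed in most tissues, was at 55.3 ± 1.93 compared with 31.3 ± 11.6 FPKM and was not called (adjusted p = 0.0522). Its adjusted p was under the threshold in 9 of 17 alternatives, among them DESeq2 (0.030) and the fit without endogenous library 1 (log2 fold change 0.37, adjusted p = 3.4e-05). Rxrg, at 0.457 ± 0.24 compared with 0.78 ± 0.677 FPKM, was not called, but was called lower without endogenous library 1 (log2 fold change -1.51, adjusted p = 0.00734).

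Of the 16 other genes of the LXR target list, 10 were called higher and 3 lower, with a median log2 fold change of 1.07. Cd5l, a secreted protein of tissue macrophages, changed by 10.80 ± 0.25, the cholesterol transporter Abcg1 by 4.71 ± 0.11 and Mertk, a receptor for dying cells, by 3.51 ± 0.09 on the log2 scale. The genes that were lower are enzymes of fatty acid synthesis. They were Scd1, at 2.11 ± 0.20 compared with 28.9 ± 6.49 FPKM, Fasn, at 1.41 ± 0.14 compared with 5.34 ± 0.43 FPKM, and Scd2, with a log2 fold change of -1.68. Without endogenous library 1 the list had 5 genes called lower.

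Cebpb encodes C/EBPβ, a factor of inflammation, fat formation and granulocyte production under stress. Its level was 727.0, 717.0 and 681.9 CPM in the MSC-derived and 359.3, 414.2 and 445.7 CPM in the endogenous libraries. The groups did not overlap, but the lowest MSC-derived value was only 1.53 times the highest endogenous value. The log2 fold change of 0.80 ± 0.09 (adjusted p = 0.00016) was the smallest of the 9, and it was 0.67 without endogenous library 1. The exons of Cebpb overlap those of Tmem189 on the opposite strand, which was also called higher (log2 fold change 1.13 ± 0.07).

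Cebpe encodes C/EBPε, which drives the late steps of granulocyte maturation. It was measured at 62.0, 61.3 and 62.3 CPM in the MSC-derived and 4.45, 4.2 and 3.39 CPM in the endogenous libraries. The MSC-derived values were nearly the same, with a coefficient of variation of 0.846%, and no library of the endogenous group stood out. Its log2 fold change was 3.95 ± 0.14 (adjusted p = 4.04e-07). In FPKM, Cebpe was 0.108 to 0.116 of Cebpb in the MSC-derived and 0.00962 to 0.0156 of it in the endogenous libraries.

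The C/EBP family was mixed, with 4 of 6 genes called higher and 2 lower, compared with 31.3% and 30.3% of all genes. Cebpa, the master factor of early granulocyte and monocyte precursors that is also active in fat, was at 60.4 ± 1.64 compared with 30.8 ± 3.99 FPKM. On the log2 scale Cebpa changed by 0.85 ± 0.11 and Cebpz by 0.82 ± 0.14. Cebpd fell by 1.36 on the log2 scale, from 74.5 ± 11.3 to 31.5 ± 0.82 FPKM, and Cebpg fell by 0.61. Cebpb remained the largest part of the family in every library, at 75.6% to 76.8% of the summed FPKM in the MSC-derived and 68.7% to 70.1% in the endogenous libraries.

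Granule and other granulocyte genes, which C/EBPε and GFI1 are known to regulate, were higher in 15 of 15 cases, with a median log2 fold change of 3.81. Not all of the 15 encode granule proteins, and those of S100a8 and S100a9 lie in the cytosol. S100a8 changed by 4.63 ± 0.20, the cathelicidin gene Camp by 4.56 ± 0.15 and S100a9 by 4.39 ± 0.25 on the log2 scale. S100a8 alone reached 78040 ± 4021 FPKM in the MSC-derived libraries, compared with 2874 ± 789 FPKM. The list shares most of these genes with the neutrophil markers.

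Of 11 tested genes known to respond to C/EBPβ, 4 were called higher and 6 lower, with a median log2 fold change of -1.70. Among all genes tested, these shares were 31.3% and 30.3%. Lcn2, an iron-binding granule protein, changed by 4.21 ± 0.23, the nuclear receptor Pparg by 4.05 ± 0.12 and the cytokine Il1b by 2.89 ± 0.12 on the log2 scale. Mmp13, the collagenase of cartilage, fell by 3.42 on the log2 scale, from 301.3 ± 50.1 to 30.6 ± 1.32 FPKM, and the chemokine Ccl2 fell by 2.62, from 302.9 ± 16.2 to 53.6 ± 4.58 FPKM.

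Gfi1 encodes a zinc finger repressor of granulocyte and lymphoid precursors. It had 181, 190 and 149 counts in the MSC-derived and 0, 14 and 26 counts in the endogenous libraries, or 7.08, 7.79 and 6.52 CPM against 0, 0.619 and 1.09 CPM. The groups did not overlap, and the lowest MSC-derived level was 5.99 times the highest endogenous level. The log2 fold change of 3.63 ± 0.90 (adjusted p = 0.0097) had the widest error of the 9. It was 2.99 without endogenous library 1 and 4.51 without endogenous library 3, and on the log2(FPKM + 1) scale limma gave 1.71. The exons of Gfi1 overlap those of an antisense gene that was not used here.

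Gfi1b, the relative of Gfi1 that acts in red cell and platelet precursors, changed by 1.55 ± 0.30 on the log2 scale. Of the corepressors recruited by both proteins, Kdm1a fell by 1.13 and Hdac2 by 0.59 on the log2 scale, while Rcor1 and Hdac1 were not called (log2 fold changes -0.24 ± 0.19 and -0.27 ± 0.12). In all, 2 of 6 genes of this group were called higher and 2 lower. Both counts are near the shares of all genes tested, 31.3% higher and 30.3% lower. Hdac1 was also called lower without endogenous library 1 (log2 fold change -0.43, adjusted p = 9.09e-07) and with upper-quartile normalization (adjusted p = 0.0453).

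Ikzf1 encodes Ikaros, a chromatin-binding zinc finger protein of blood cells. It was measured at 115.8, 125.3 and 130.7 CPM in the MSC-derived and 10.4, 8.18 and 7.70 CPM in the endogenous libraries. Endogenous library 1 was the highest of its group, at 1.31 times the mean of the other two, and the groups were far apart. Ikzf1 thus differed by 3.82 ± 0.14 on the log2 scale (adjusted p = 4.89e-07).

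Ikzf1 was the one gene of the 5 in the Ikaros family that was called higher. Ikzf4, at 0.237 ± 0.047 compared with 2.88 ± 0.031 FPKM, and Ikzf5, at 3.27 ± 0.20 compared with 6.65 ± 2.29 FPKM, were called lower. Ikzf2 (log2 fold change -0.39 ± 0.38) and Ikzf3 (1.38 ± 0.98), which is a lymphoid gene, were not called, although Ikzf3 was called higher without endogenous library 1. Ikzf1 made up 84.9% to 85.1% of the summed FPKM of the family in the MSC-derived libraries. In the endogenous libraries Ikzf5 was the largest part, at 51.9% to 60.0%, and Ikzf1 made up 13% to 15.3%.

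**Figure D2:**
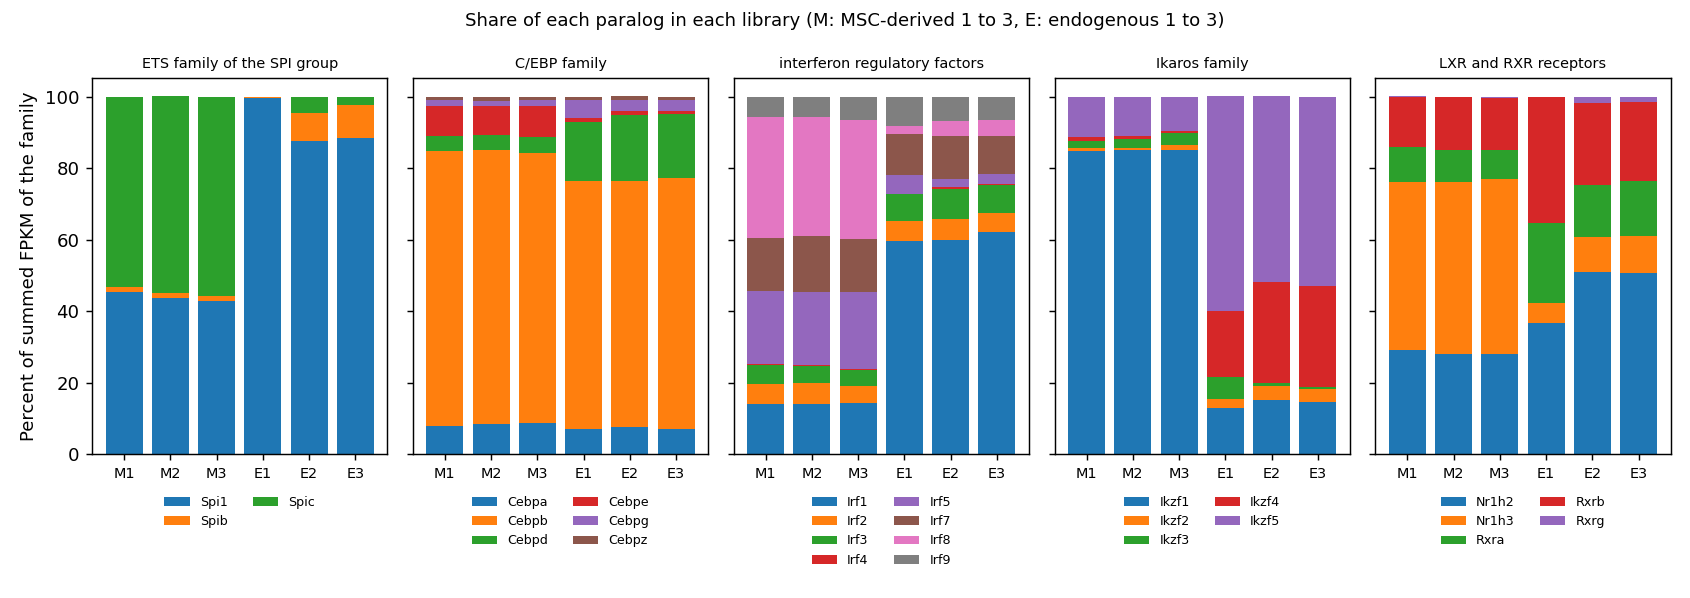
Share of each gene in the summed FPKM of its family (percent, 5 families, genes that reach 0.1% in any library), with 1 bar per library for MSC-derived libraries M1 to M3 and endogenous libraries E1 to E3. Spic, Irf8, Ikzf1 and Nr1h3 take a larger share in the MSC-derived bars, while Cebpb stays between 68.7% and 76.8% of its family in all 6.

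**Figure D3:**
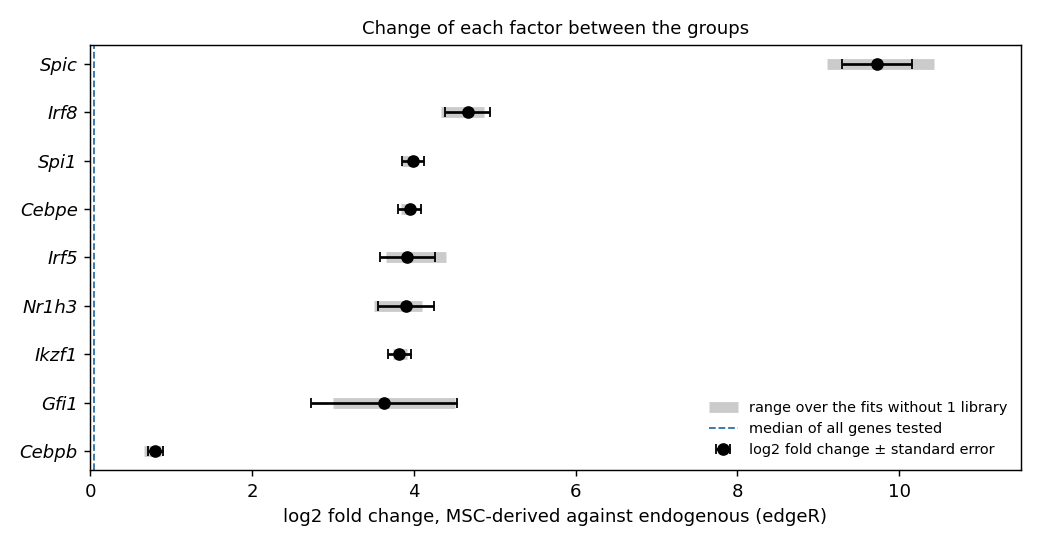
Log2 fold change of each factor, MSC-derived against endogenous, from edgeR (points, bars are 1 standard error), with the range over the 6 fits that leave out 1 library (grey) and the median of all genes tested (dashed line at 0.05). Spic lies highest at 9.73, Cebpb lowest at 0.80, and the other 7 lie between 3.63 and 4.66.

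Between genes, levels were compared in FPKM. The deposited FPKM summed to 808701 to 813572 per MSC-derived library and to 504768 to 573603 per endogenous library. For this ranking, only the order within a group was therefore read. FPKM values printed for both groups elsewhere are not corrected for this difference. The size of a change between groups is to be read from the log2 fold change. In the MSC-derived libraries the order was Cebpb (553.5 ± 20.8 FPKM), Spic (358.2 ± 8.98), Spi1 (288.9 ± 11.6), Irf8 (146.2 ± 2.58), Nr1h3 (93.2 ± 2.0), Irf5 (91.4 ± 3.09), Cebpe (61.2 ± 0.433), Ikzf1 (26.2 ± 1.53) and Gfi1 (2.95 ± 0.316). Nr1h3 and Irf5 were the only neighbours in this order whose libraries overlapped.

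In the endogenous libraries Cebpb was also first, at 291.8 ± 31.4 FPKM, and the others were far below it. Spi1 followed at 16.7 ± 2.66 FPKM, then Nr1h3 (5.80 ± 2.63), Irf8 (5.31 ± 1.96), Irf5 (4.77 ± 1.90), Cebpe (3.65 ± 0.498), Ikzf1 (1.69 ± 0.284), Spic (0.383 ± 0.355) and Gfi1 (0.220 ± 0.211). Nr1h3 and Irf8, Irf8 and Irf5, Irf5 and Cebpe, and Spic and Gfi1 overlapped. Spic thus stood in place 2 of 9 in one group and in place 8 of 9 in the other.

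The endogenous libraries varied more. The coefficient of variation of the 9 factors was 0.846% to 9.0% among the MSC-derived and 10.8% to 95.9% among the endogenous libraries. Over all genes, the chi-square statistic per gene was 5.44 between endogenous libraries 2 and 3, compared with 3.87 to 4.29 among the MSC-derived libraries. It was 58.6 and 55.3 between endogenous library 1 and the others of its group. Endogenous library 1 did not shift the factors in 1 direction: it was the lowest of its group for 5 of them and the highest for 4.

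Since leukocyte genes as a whole differed between the groups, each factor was also set against them within the same library, as its log2(CPM + 0.5) minus the mean of 16 leukocyte genes that hold none of the factors. That mean was 8.59 to 8.61 in the MSC-derived and 4.05 to 4.65 in the endogenous libraries, a difference of 4.19. Of the factors, 5 overlapped between the groups on this scale, namely Spi1 (difference -0.22), Irf5 (-0.21), Nr1h3 (-0.24), Cebpe (-0.40) and Ikzf1 (-0.44). Spi1, Irf5, Nr1h3 and Cebpe changed sign when set against the summed FPKM of the same genes (0.32, 0.41, 0.23 and 0.13), so no direction is given for them.

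The other 4 did not overlap. Spic was at -0.10, -0.02 and -0.06 relative to the leukocyte genes in the MSC-derived libraries and at -5.05, -4.16 and -4.64 in the endogenous ones, a difference of 4.56. Cebpb was at 0.90, 0.90 and 0.81 compared with 4.45, 4.17 and 4.15, a difference of -3.39. Irf8 differed by 0.50 and Gfi1 by -1.21. The Gfi1 and Spic values depended on the amount added before the logarithm, since endogenous library 1 had 0 counts of both. With 0.1 added the Gfi1 difference was -0.23 and with 1 added -1.69, and for Spic these were 5.68 and 3.94. The exact two-sided permutation test gave p = 0.10 for each of these 4 of the 9 comparisons, which is the smallest value that 3 against 3 libraries allow, so none could pass the threshold and no direction is drawn from them.

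**Figure D4:**
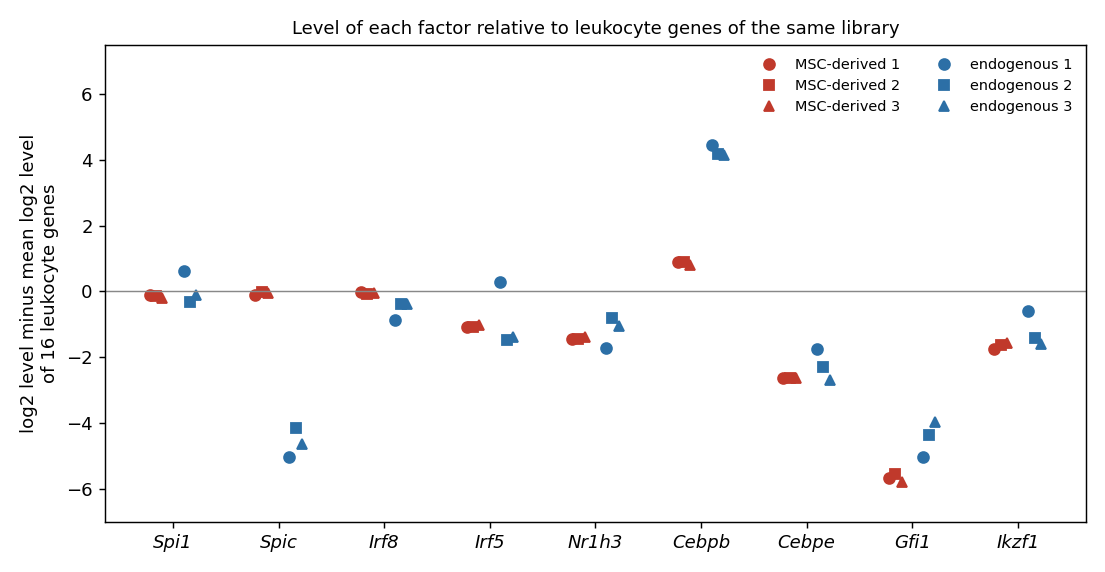
Log2 level of each factor minus the mean log2 level of 16 leukocyte genes of the same library (CPM + 0.5), 1 symbol per library, MSC-derived red and endogenous blue. Spic lies 4.56 higher and Cebpb 3.39 lower in the mean of the MSC-derived libraries, while 5 factors overlap.

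Genes whose pattern was most like that of each factor over the 6 libraries were found by the root mean square difference of log2 levels, each gene taken relative to its own mean, among 10108 other genes whose average log2 CPM reached 3 (10109 for Gfi1, which did not). Spi1 was closest to Trem3 (0.05) and Nfam1 (0.06), both receptors of myeloid cells. Spic had no near neighbour. Its closest genes were Ccr3, the eotaxin receptor of eosinophils (0.27), and C1qb, a complement chain made by macrophages (0.30), which had log2 fold changes of 10.14 ± 0.37 and 9.08 ± 0.36. Irf8 was closest to Creg1 (0.06) and Selplg (0.07), and Irf5 to Slc15a2 (0.14) and Rassf4 (0.15). Nr1h3 was closest to Fpr2 (0.06), a receptor for formyl peptides, and Gpr146 (0.06). Cebpe and Ikzf1 shared Epb41l3 as a close gene (0.04 and 0.09), beside Myo7a (0.07) and Tbxas1 (0.06), the thromboxane synthase. Gfi1 was closest to Rasa4 (0.15) and Epx (0.17), the peroxidase of eosinophils. Cebpb was closest to Smim8 (0.04). All 6 libraries entered this measure, so the difference between the groups is part of it.

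Other transcription factors of myeloid and blood cells did not move as one. Of 26 tested, 13 were called higher and 8 lower, with a median log2 fold change of 0.52. Over all genes tested, 31.3% were called higher and 30.3% lower. Tfec, a relative of MITF found in macrophages, changed by 3.61 ± 0.68, Lmo2 by 3.21 ± 0.21 and Lyl1 by 3.09 ± 0.59 on the log2 scale, the latter both known from blood stem cells. Egr1 fell by 2.86 on the log2 scale, from 1298 ± 66.1 to 194.5 ± 3.29 FPKM, and Egr2 fell by 1.88. Both are early response genes of many cell types.

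The remaining marker lists give the setting of these results. Their counts are to be read against 31.3% of all genes called higher and 30.3% called lower. Of 7 tested markers of eosinophils, basophils and mast cells, 5 were called higher (Prg2 by 3.49 ± 0.13 on the log2 scale), at a summed 1304 to 1349 CPM compared with 61.5 to 92.0 CPM, and Cma1 was at 0 in all endogenous libraries. Most of the MSC-derived sum was Prg2 (14748 to 16264 counts) and Ccr3 (12434 to 14414), compared with 1939 to 2109 for Epx, the next highest. Dendritic cell markers had 4 of 8 called higher and 1 lower (66.9 to 71.4 against 28.8 to 31.4 CPM), and 7 higher without endogenous library 1. Flt3 was at 1.65 ± 0.15 compared with 0.193 ± 0.096 FPKM, and Xcr1 was not called.

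Lymphoid markers were also measured. B cell markers had 7 of 10 called higher and 1 lower (341.9 to 358.5 against 102 to 125 CPM), and 4 higher without MSC-derived library 2. T and NK cell markers had 6 of 8 called higher (234.9 to 249.6 against 13.4 to 14.3 CPM) and 3 without any 1 of the MSC-derived libraries. Most of that sum in the MSC-derived libraries was Cd4 (3970 to 4058 counts) and Nkg7 (1438 to 1635 counts). Any other gene of the list had at most 113 counts there. Cd79a was at 38.3 ± 2.78 compared with 6.43 ± 2.87 FPKM and Cd3e at 2.26 ± 0.80 compared with 0.233 ± 0.221 FPKM.

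Markers of the skeletal lineages were lower. Osteoblast markers were lower in 8 of 8 cases (2423 to 2478 against 79520 to 86360 CPM) and mesenchymal stromal markers in 9 of 10 (3761 to 3801 against 36270 to 39030 CPM), Prrx1 itself by a log2 fold change of -2.15 ± 0.17. Osteoclast markers, which are of myeloid origin, had 3 of 6 called higher and 1 lower (848.6 to 878.5 against 650.3 to 744.9 CPM), and 3 lower without endogenous library 1. Acp5 changed by 2.12 ± 0.30 and Ctsk by -0.04 ± 0.12 on the log2 scale, and Ctsk was not called. Without endogenous library 1, Ctsk was called lower (log2 fold change -0.20, adjusted p = 0.00139). Adipocyte markers, those of the tissue that gave the injected cells, had 3 of 6 called higher and 3 lower (397.2 to 412.8 against 192.6 to 222.9 CPM). Pparg (126.6 ± 5.90 compared with 6.51 ± 1.30 FPKM), Fabp4 and Lipe were higher. Adipoq (0.927 ± 0.399 compared with 146.3 ± 13 FPKM), Plin4 and Cidec were lower. Most of the MSC-derived sum was Pparg (4745 to 5011 counts) and Fabp4 (4002 to 4605), compared with 499 to 536 for Lipe, the next highest. Endothelial markers had 5 of 8 called higher (80.8 to 84.8 against 18.3 to 33.4 CPM), among them Pecam1 by 2.17 ± 0.24 on the log2 scale.

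**Figure D5:**
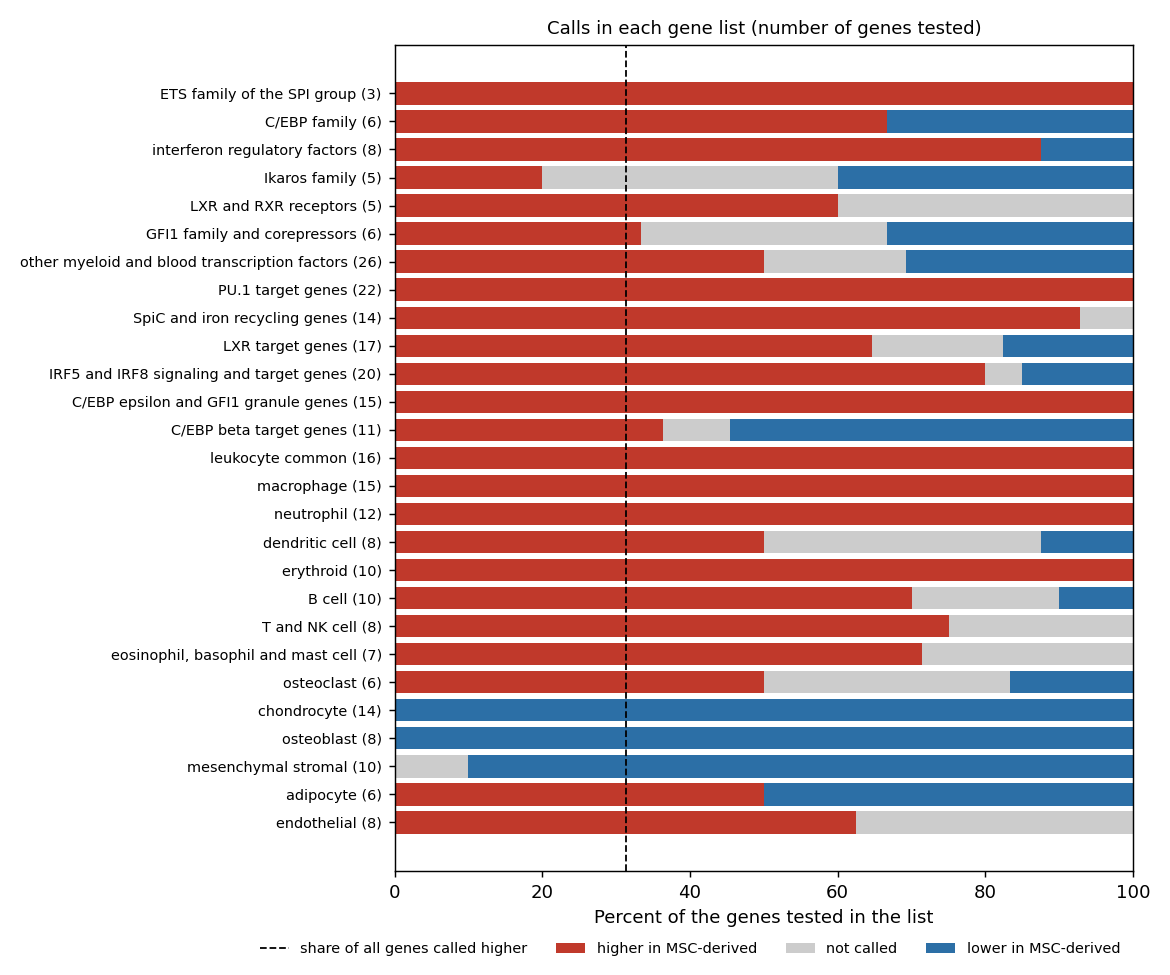
Percent of the genes tested in each list that were called higher (red), lower (blue) or not called (grey) in the MSC-derived libraries, with the number tested in brackets and the share of all genes called higher, 31.3%, as a dashed line. The 22 PU.1 targets, 15 granule and other granulocyte genes and the leukocyte, macrophage, neutrophil and erythroid markers are red throughout. The chondrocyte and osteoblast markers are blue throughout.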

How the data were processed

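The data were 3 bulk RNA-seq libraries of MSC-derived and 3 of endogenous Tomato+ cells, grouped by their sample titles. Read filtering by the authors used SOAPnuke, alignment used HISAT2 and Bowtie2, and gene quantification used RSEM. The submitters' processing notes give Bowtie2 2.2.5, RSEM 1.2.12 and mm9, and the methods give other versions. The authors deposited RSEM expected counts without normalization, FPKM, TPM, and a normalized signal equal to expected counts times 1 factor per library. TPM, this signal and the authors' group averages entered no result. Every library column was mapped to its sample by name (0 were left out).

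Expected counts were rounded, which changed 20.6% of the values, and tested in R 4.3.3 with edgeR 4.0.16 (filterByExpr, TMM, glmQLFit, glmQLFTest, no block), with Benjamini-Hochberg adjustment over 14289 genes and a threshold of 0.05. The standard error is the log2 fold change divided by the square root of the F statistic. The methods' DESeq2 was run as an alternative (version 1.42.0), beside 4 other normalizations, limma 3.58.1 on FPKM with 1 or 0.1 added before log2, 2 other filters, a block on replicate number and each library left out in turn. Depth was similar in all libraries, and floors from 3 counts cover counting error only, not molecules lost in amplification.

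The factors and gene lists were chosen with earlier results of these data known. The text names the 9 factors, their paralogs, the 3 largest increases and 2 largest decreases called in each pathway list, the 2 genes written first in each marker list and the 2 genes closest to each factor. Scd2, Hmox1, Slc40a1, Bach1, Rcor1, Hdac1, Cma1, Prrx1, Prg4, Comp, Cd4, Nkg7, Fabp4, Lipe, Plin4 and Cidec were added after their values were seen. Tnpo3 and Tmem189 were added because their exons overlap those of a factor. Promoter windows are from RefSeq (GRCm38.p6), another build than that of the counts. Overlapping exons were taken by name from GENCODE M21. Some items are not reported here. Figures were drawn with matplotlib 3.10.9.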

Additional observations from a re-analysis of the deposited data

How the results depend on the processing

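All 9 factors stayed higher and below the threshold in 17 of 17 alternatives, with a highest adjusted p of 0.0437 (Gfi1 without MSC-derived library 2). Nothing in the labels ties same-numbered libraries of the groups together, and their deviations from the group means correlated at 0.0129, 0.00221 and 0.0178. The MSC-derived libraries may differ too little for a pairing to show, so these values do not exclude one. The main fit used no pairing. With the replicate block the 9 factors were called higher, with Gfi1 at 4.06 (adjusted p = 0.0214), and 4103 genes were called higher and 3920 lower in all. Over the other alternatives 3672 to 5563 genes were called higher and 3761 to 5686 lower, the extremes being without MSC-derived library 3 and library 2 and without endogenous library 1. Library totals without a composition factor moved the median log2 fold change of all genes from 0.05 to 0.16, and limma on log2(FPKM + 0.1) to 0.195.

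Values that changed sign were small. Ctsk (-0.04) became 0.082 with library totals, 0.10 with limma on log2(FPKM + 0.1), 0.094 on log2(FPKM + 1) with or without the filter, and -0.20 to 0.053 with 1 library left out, including 0.0047 without MSC-derived library 1. Relative to the summed FPKM of the leukocyte genes, Spi1 was at 0.32, Irf5 at 0.41, Nr1h3 at 0.23 and Cebpe at 0.13, and with 1 library left out the values of Spi1 were -0.41 to 0.060 and those of Irf5 -0.52 to 0.36, the highest without endogenous library 1. On that summed scale Spic was at 4.99, Irf8 at 0.95 and Cebpb at -2.84. The causes were not tested. Irf4 lost its call with the replicate block (adjusted p = 0.0672). Cd3e and Cd3d lost theirs without single libraries. Depth limits Spic and Gfi1, which had 0 to 26 counts in the endogenous libraries.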
